A study of Mus musculus with 21 samples.

Results

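The Tfcp2l1 locus was described here through the 44 regions whose nearest gene is given as Tfcp2l1 in the authors' deposited table, at any distance, out of 186826 regions in all. The study mapped H3K4me1, a histone mark of enhancers and promoter flanks, in mouse embryonic stem cells with CUT&RUN, a method that frees antibody-bound chromatin with protein A-MNase. The groups were naive cells and formative cells, the latter 63 h after LIF and 2i were withdrawn, each in 4 genotypes. These were wild type (WT), a line with MLL3 knocked out and MLL4 floxed (MLL3KO_MLL4fl, here the floxed line), a line with both knocked out (MLL3KO_MLL4KO, here DKO) and a line with the allele named CD at both (MLL3CD_MLL4CD, here dCD). MLL3 is thus absent in the floxed line as well as in DKO, and the floxed line is the control of DKO, while WT is the control of dCD. WT and dCD are labelled as line R1 and the others carry no line label. Whether a line is 1 clone is not given in the sources used here. There were 2 libraries, prepared independently, for each of the 8 groups, but the table holds 1 pooled value per group. No spread between libraries could therefore be computed, and differences between groups are given by size without a test. The exception is the comparison of formative with naive WT cells, for which the authors' deposited table gives a false discovery rate (FDR) per region.

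TFCP2L1 is a transcription factor of the CP2 branch of the grainyhead family and a member of the network that keeps mouse embryonic stem cells in the naive state. Its gene is activated downstream of LIF through STAT3, and is relieved from repression by TCF7L1 when GSK3 is inhibited, so that both arms of LIF and 2i culture feed into it. It is shut down as cells leave the naive state. Enhancer H3K4me1 is placed mainly by the enzymes MLL3 (Kmt2c gene) and MLL4 (Kmt2d gene), while other methyltransferases act at promoters.

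In mm10, Tfcp2l1 lies on the plus strand at chr1:118627945-118685168, a stretch of 57.224 kb with 15 exons in the GENCODE annotation. Intron 2, at 19.907 kb, is the longest intron. The 44 regions reached from 68.6 kb before the start site to 148.3 kb after it (chr1:118558810-118778044) and together covered 122.6 kb. For description they were divided by position, after the values had been seen. Regions that overlap the gene count with it, and were split at the end of intron 2 by their midpoints. Of the 44, 8 lay within the neighbouring gene Clasp1, 4 in the 15.3 kb between Clasp1 and the start site, and 1 over the promoter. A further 5 lay in introns 1 and 2, 9 from intron 3 to the gene's end, and 17 downstream toward Gli2. Regions are named below by their distance from the start site as deposited.

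The promoter sequence is shown because this region was not lower in formative WT cells, unlike most of the locus. It is the RefSeq promoter (GRCm38.p6, plus strand, chr1:118627695-118627922), up to the first RefSeq start. The capitals mark CCACGCCC, which is GGGCGTGG on the other strand and a form of the KLF and SP motif, and TATAAA.

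promoter: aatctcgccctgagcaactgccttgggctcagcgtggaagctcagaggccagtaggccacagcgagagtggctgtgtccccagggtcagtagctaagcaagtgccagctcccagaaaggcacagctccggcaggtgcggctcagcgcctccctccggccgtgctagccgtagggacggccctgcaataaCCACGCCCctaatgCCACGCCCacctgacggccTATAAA

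The TATAAA begins 28 bases before the GENCODE start. Among 27025 RefSeq promoter windows of the same 228 bases, GGGCGTGG on either strand was in 4.25% and TATAAA in 12.2%. These 2 motifs were searched after the sequence had been seen. The 6 motifs searched in all regions were ESRRB (TCAAGGTCA), KLF (GGGTGTGG), OCT4 (ATGCAAAT), STAT (TTCCNNGAA), TCF (CTTTGAT) and TFCP2L1 (2 copies of CNGG spaced by 6 bases), on both strands. In this promoter window no match to the 6 was found.

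Across the whole lengths of the 44 regions, ESRRB had 8 matches in 7 regions, or 0.653 per 10 kb against 0.357 per 10 kb over all regions. STAT had 20 matches (1.63 against 1.62 per 10 kb) and TFCP2L1 had 96 (7.83 against 6.92). OCT4 had 9 (0.734 against 0.636), KLF had 9 (0.734 against 1.14) and TCF had 16 (1.31 against 1.70). In the central 300 bases, a match was found in 0 of 44 regions for ESRRB and OCT4, where 1.03% and 2.18% of all regions had one. It was found in 1 for KLF and 1 for STAT (3.37% and 4.87% of all regions), in 2 for TCF (5.14%) and in 7, or 15.9%, for TFCP2L1 (16.3%). A match describes letters in the sequence and is not evidence of binding. The ESRRB matches are shown because ESRRB is a naive factor, and some of them lie in regions described below. Capitals mark the match, each with 25 bases of GRCm38.p6 on either side, read on the strand that holds it.

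-0.8 kb region, chr1:118627434-118627492, minus strand: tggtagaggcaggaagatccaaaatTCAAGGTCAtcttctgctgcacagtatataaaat
+36.1 kb region, chr1:118663223-118663281, plus strand: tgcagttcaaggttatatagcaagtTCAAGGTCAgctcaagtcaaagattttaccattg
+40.1 kb region, chr1:118667768-118667826, minus strand: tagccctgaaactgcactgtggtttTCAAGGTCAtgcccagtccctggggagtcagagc
+65.1 kb region, chr1:118692853-118692911, minus strand: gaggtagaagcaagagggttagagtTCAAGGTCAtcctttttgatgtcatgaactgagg
+68.4 kb region, chr1:118695484-118695542, minus strand: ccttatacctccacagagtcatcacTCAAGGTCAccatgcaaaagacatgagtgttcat
+68.4 kb region, chr1:118697219-118697277, plus strand: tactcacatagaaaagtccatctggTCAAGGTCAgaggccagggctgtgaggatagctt
+120.7 kb region, chr1:118748397-118748455, minus strand: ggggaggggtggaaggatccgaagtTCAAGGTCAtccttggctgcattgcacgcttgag
+129.5 kb region, chr1:118757038-118757096, minus strand: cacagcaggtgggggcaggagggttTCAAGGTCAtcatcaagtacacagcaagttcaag

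The regions had a median GC content of 48.7% against 46.2% over all regions, and a median of 7.92 CpG per kb against 11.7. The promoter region had 21.6 CpG per kb.

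H3K4me1 fell over most of the locus when WT cells left the naive state. Of the 44 regions, 28 (63.6%) in the authors' deposited table were lower in formative WT cells at an FDR under 0.05 and none was higher, while 10.5% of all regions were called lower. Across the 44 regions the normalized reads, recovered from the deposited levels, summed to 3678 in naive and 1780 in formative WT cells, so that 48.4% remained. The reads per region ran from 19.8 to 426 in naive WT cells, with a median of 61.1, and from 4.98 to 226 in formative WT cells, with a median of 24.7. The mean difference in level over the regions, formative minus naive, was −1.18 on the log2 scale (SD over regions 0.60, n = 44 regions, which are not replicates). On that scale −1 is a 2-fold loss. By size, 29 regions were at least 2-fold lower, against 11.4% of all regions, and 41 of 44 were below 0.

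The 28 called regions held from 23.2 to 426 reads in naive WT cells, and the other 16 from 19.8 to 95.6. Just inside the threshold were the regions at −62.4 kb (FDR 0.0455) and +68.4 kb (FDR 0.0451), and just outside it were −27.5 kb (0.0641) and +65.1 kb (0.0874), all in the authors' deposited table. Of the 16 regions not called, 13 were below 0 in WT. Among 2205 genes with at least 20 regions, whose median share of regions called lower was 6.67%, Tfcp2l1 had the eighth highest share. Its mean WT difference was the 14th lowest of these genes. The locus was selected for description with its low rank among naive loci already known, so these ranks are a description.

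The floxed line, which lacks MLL3, differed between the states much as WT did. Reads summed to 3871 in naive and 1891 in formative floxed cells, so that 48.9% remained, and the mean difference was −1.04 (SD over regions 0.65). At least 2-fold lower were 20 regions, against 10.6% of all regions, and 18 of these were among the 28 called in WT. All 28 regions called in WT were below 0 in the floxed line.

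In both mutants the naive reads were fewer and the difference between the states was smaller. DKO had 2372 reads in naive and 1644 in formative cells, so that 69.3% remained, and dCD had 2358 and 1647, so that 69.9% remained. The mean difference between the states was −0.41 in DKO (SD over regions 0.55) and −0.40 in dCD (0.57). At least 2-fold lower were 5 regions in DKO and 7 in dCD, against 1.25% and 2.47% of all regions. Of the 28 regions called in WT, 27 were below 0 in DKO and 25 in dCD, with 4 and 7 at least 2-fold lower. Among genes with at least 20 regions, the mean difference of Tfcp2l1 was the 10th lowest in DKO and the 100th lowest in dCD. Formative minus naive was higher (less negative, or more positive) than in the control in 37 of 44 regions of DKO, by 0.63 in the mean, and in 40 of 44 of dCD, by 0.78. Over all regions the median of this difference was 0.08 for DKO and 0.01 for dCD, and the share above 0 was not computed.

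**Figure D1:**
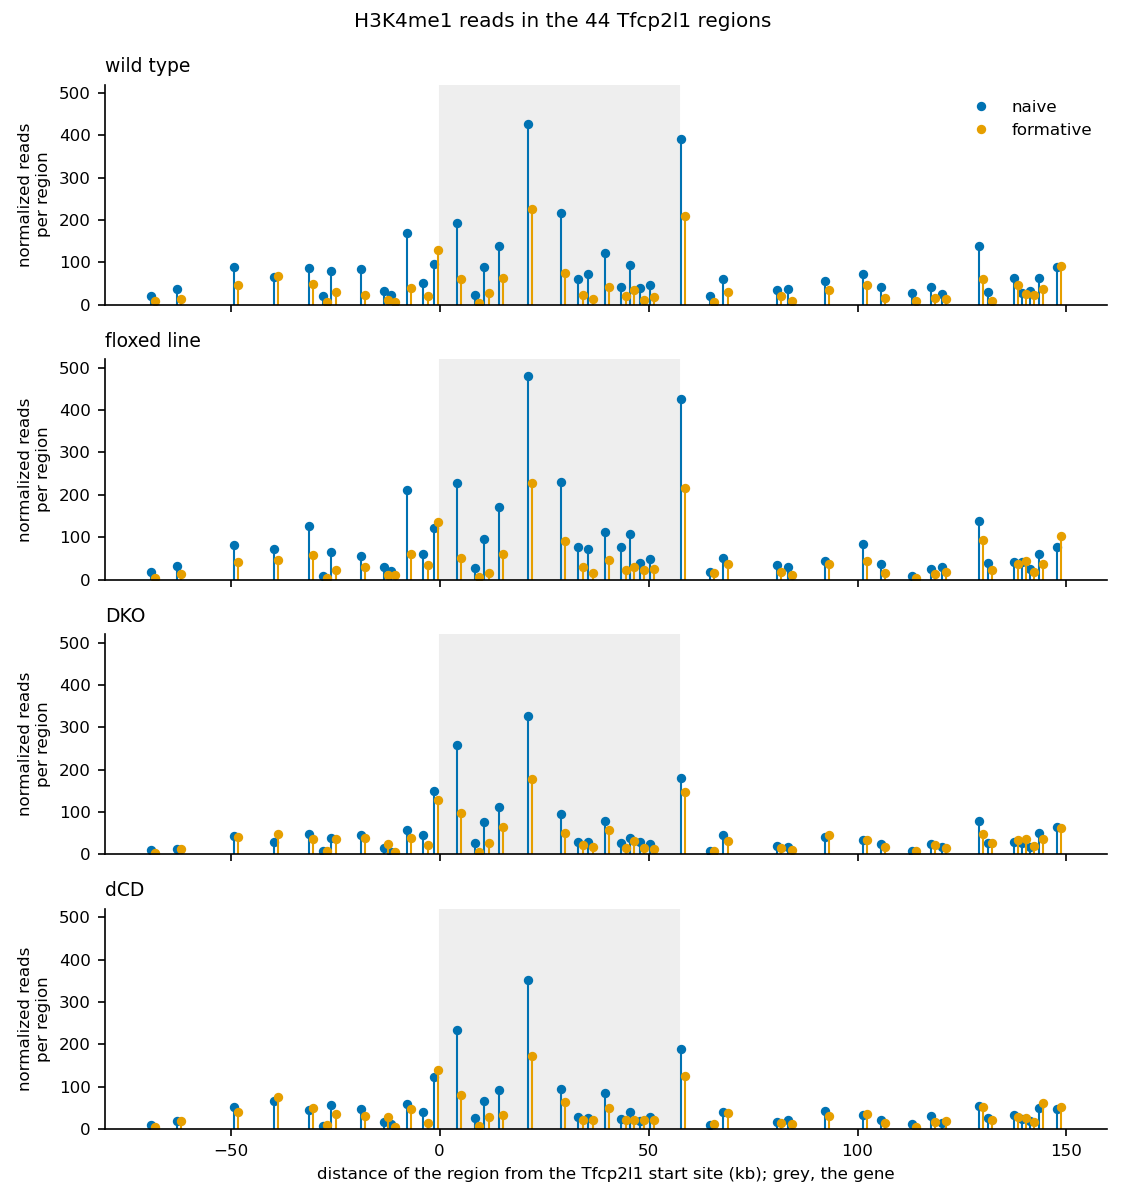
Normalized H3K4me1 reads (vertical axis) in each of the 44 regions against distance from the Tfcp2l1 start site in kb (horizontal axis), with 1 panel per genotype, naive cells in blue and formative cells in orange, drawn slightly apart. The tallest naive region lies at +21.7 kb in all 4 panels, and naive reads summed over the regions from intron 3 to the gene's end are lower in DKO (528) and dCD (536) than in WT (1087) and the floxed line (1189).

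Within the naive state, the mutants were lower than their controls. The mean of DKO minus the floxed line was −0.71, with 13 of 44 regions at least 2-fold lower against 15.9% of all regions. The mean of dCD minus WT was −0.73, with 15 regions at least 2-fold lower against 13.9%. Among 2205 genes with at least 20 regions, these means were the 235th lowest for DKO and the 200th lowest for dCD. Naive reads of 40 of 44 regions were below WT in both mutants. Over all regions that share was not computed, and the median naive difference from WT was −0.30 for DKO and −0.29 for dCD. All regions of the table shifted too: centring each group on its own median moved DKO minus the floxed line by 0.21 in either state, and dCD minus WT by 0.35 in naive and 0.40 in formative cells. Relative to that shift the naive means at Tfcp2l1 were −0.50 for DKO and −0.38 for dCD, and 11 and 2 regions were at least 2-fold lower. After centring, 35 of 44 regions were below WT in naive DKO and 36 in naive dCD. The share over all regions was not computed after centring, so these counts have no such share beside them.

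Within the formative state, the 4 genotypes had similar reads in sum, with larger gaps in single stretches. DKO held 92.3% and dCD 92.5% of the summed WT reads, where in the naive state they had held 64.5% and 64.1%. Formative DKO held 86.9% of the floxed line, its control. By stretch that share ran from 73.6% (intron 3 to the gene's end) to 104% (introns 1 and 2). Formative dCD held from 81.6% (intron 3 to the gene's end) to 121% (between Clasp1 and the promoter) of WT. The mean of DKO minus the floxed line was −0.08 and that of dCD minus WT 0.04, and relative to the shift of all regions both were above 0 (0.13 and 0.44). Only 1 region was at least 2-fold lower in formative DKO than in the floxed line, at −11.2 kb, against 16.7% of all regions. None was in formative dCD relative to WT, against 20.1%. The region at −11.2 kb had few formative reads, 4.68 in DKO and 10.1 in the floxed line. Its difference was −1.07 with a counting SE of 0.81. The mutants are compared with different controls, so the differences of DKO and dCD were also set against each other. DKO minus dCD averaged −0.04 in naive and −0.05 in formative cells.

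The floxed line differed little from WT over the locus, with a mean of −0.07 in naive and 0.07 in formative cells. At least 2-fold lower than WT were 2 of 44 regions in each state, against 4.38% of all regions in naive and 3.83% in formative cells.

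**Figure D2:**
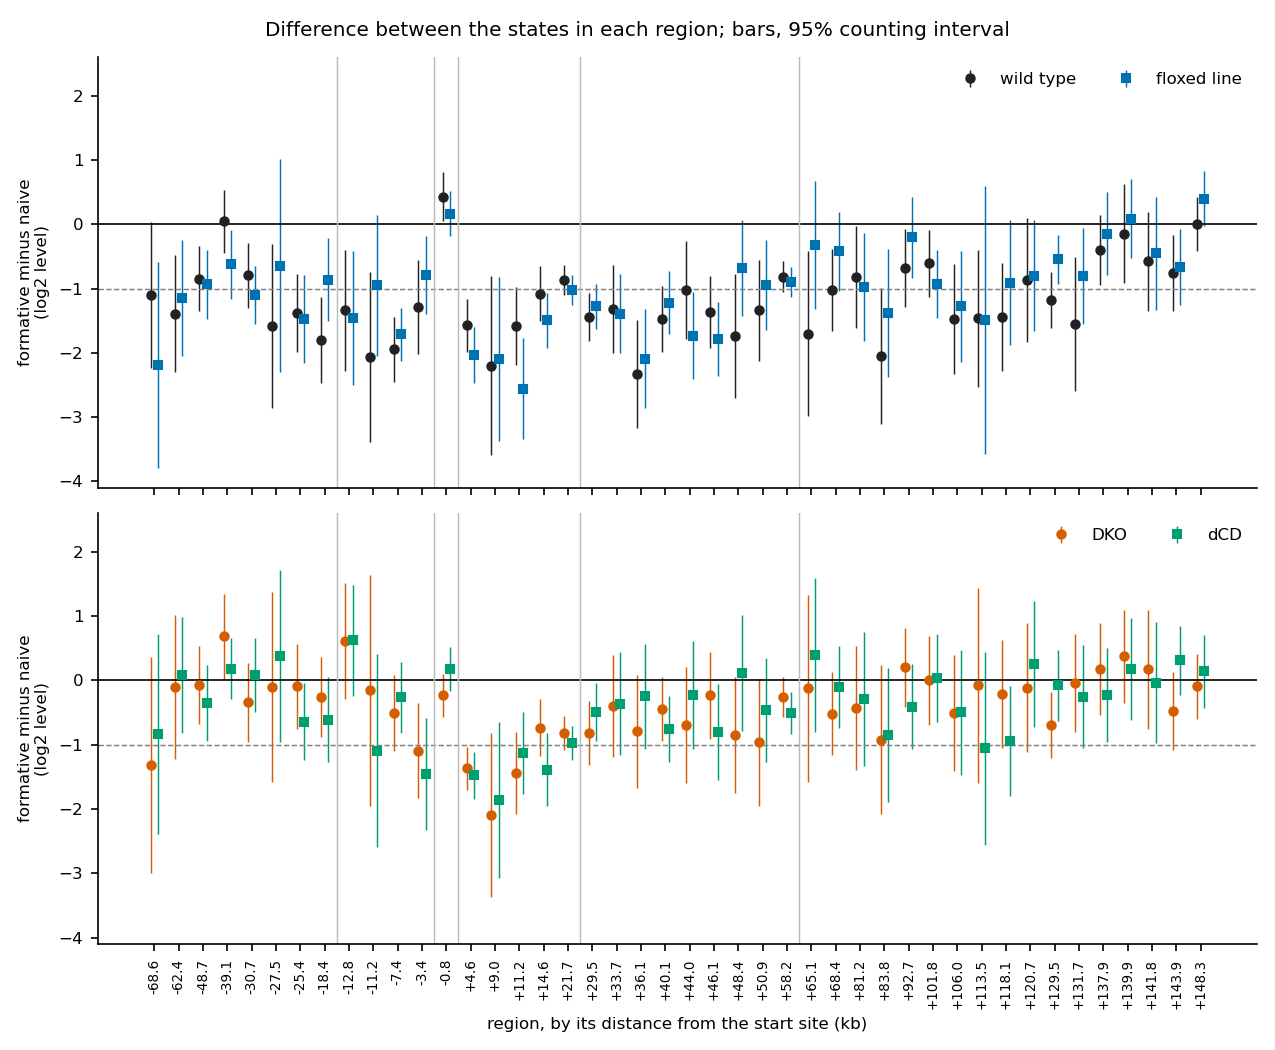
Difference in H3K4me1 level, formative minus naive, on the log2 scale (vertical axis) for each region in order along the locus (horizontal axis), with WT and the floxed line above and DKO and dCD below. Bars are 95% counting intervals that leave out variation between cultures, the dashed line is a 2-fold loss, and vertical lines separate the 6 stretches; WT points lie below 0 except at −39.1, −0.8 and +148.3 kb, and in the lower panel the 5 regions from +4.6 to +21.7 kb stay well below 0.

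The 8 regions within Clasp1, a gene for a microtubule-binding protein, had fewer reads in formative than in naive WT cells, and the mutants differed less between the states. Their reads summed to 482 in naive and 247 in formative WT cells, and to 459 and 219 in the floxed line. DKO had 235 and 224, so that 95.01% remained, and dCD had 307 and 268, with 87.3% remaining. Of the 8, 5 were called lower in the authors' deposited table, with log2 folds of −1.40 at −62.4 kb, −1.09 at −48.7 kb, −1.0 at −30.7 kb, −1.46 at −25.4 kb and −1.89 at −18.4 kb. The region at −18.4 kb (chr1:118608227-118610780) had 84.2 reads in naive and 23.2 in formative WT cells, 55.2 and 29.8 in the floxed line, 45.6 and 38.0 in DKO, and 47.0 and 30.3 in dCD. The region at −39.1 kb did not follow: it had 66.2 and 68.3 reads in WT, 71.6 and 45.5 in the floxed line, 29.1 and 48.2 in DKO, and 67.0 and 76.2 in dCD. It gave the highest difference between the states in DKO, 0.68.

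The 4 intergenic regions between Clasp1 and the promoter kept the smallest share of their naive reads in WT. Their summed reads were 278 in naive and 78.0 in formative WT cells, so that 28.1% remained, and 35.7% remained in the floxed line. All 4 were called lower. Naive DKO and dCD held 44.6% and 45.9% of the WT reads there, and kept 71.3% and 74.0% of their own on leaving the naive state.

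The region at −7.4 kb (chr1:118617644-118623518, 5.9 kb wide) held most of these reads, 169 in naive and 38.8 in formative WT cells. The floxed line had 212 and 59.7 reads there, DKO 56.3 and 37.5, and dCD 58.3 and 47.3. Naive WT and the floxed line thus stood far above the other 6 groups, which lay between 37.5 and 59.7. The log2 fold in the authors' deposited table was −1.96 with an FDR of 6.83e-10, the lowest among the 44. The difference in level was −1.95 in WT (95% counting interval −2.45 to −1.44) and −0.51 in DKO (−1.11 to 0.09). In naive cells DKO was below the floxed line by 1.79 on the log2 scale, with an interval of −2.21 to −1.37.

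At −12.8 kb (chr1:118614434-118615833) the controls were lower in the formative state and the mutants were not. Reads were 31.99 and 12.4 in naive and formative WT cells, and 28.5 and 10.1 in the floxed line. They were 16.0 and 24.7 in DKO and 17.6 and 27.3 in dCD. The differences in the mutants were 0.61 and 0.62, and their counting intervals included 0. At −11.2 kb, a region of 983 bp, naive DKO was lower than the floxed line by more than in any other region, −1.87, from 19.6 to 5.23 reads. At −3.4 kb, next to the promoter, the mutants were lower in the formative state as well: reads were 52.3 and 21.2 in WT, 59.2 and 34.0 in the floxed line, 46.4 and 21.5 in DKO, and 40.2 and 14.4 in dCD.

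The promoter region was not called lower. It runs from upstream across exon 1 into intron 1 (chr1:118625331-118628890). Reads were 95.6 in naive and 129 in formative WT cells, 121 and 136 in the floxed line, 151 and 128 in DKO, and 123 and 140 in dCD. The groups lay close together, with naive WT the lowest. The log2 fold in the authors' deposited table was 0.53 with an FDR of 0.144, which is not past the threshold. In naive cells DKO was higher than the floxed line by 0.31 and dCD higher than WT by 0.36, in both cases the highest of the 44 regions, with counting intervals of −0.04 to 0.65 and −0.02 to 0.75.

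In introns 1 and 2 both mutants were lower in the formative state, dCD about as much as WT and DKO less than the floxed line. Formative minus naive was higher in DKO than in the floxed line in all 5 regions, by 0.55 in the mean. For dCD minus WT that mean was 0.09. Their 5 regions summed to 870 reads in naive and 385 in formative WT cells, so that 44.2% remained, and the floxed line kept 35.8%. DKO went from 798 to 372 and dCD from 769 to 321, keeping 46.7% and 41.8%. The mean difference was −1.46 in WT, −1.84 in the floxed line, −1.29 in DKO and −1.36 in dCD. All 5 were called lower in WT. At least 2-fold lower were 4 of the 5 in WT, 5 in the floxed line, 3 in DKO and 4 in dCD. Naive reads were 91.7% of WT in DKO and 88.3% in dCD, and DKO had 79.6% of the floxed line, its control. The naive mean of DKO minus the floxed line was −0.27, and that of dCD minus WT was −0.18, which turned to 0.18 relative to the shift of all regions.

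The first of these, at +4.6 kb (chr1:118630009-118634989), covers exon 2 and parts of introns 1 and 2. It had 193 reads in naive and 61.5 in formative WT cells, 228 and 51.8 in the floxed line, 258 and 97.1 in DKO, and 233 and 80.4 in dCD. All 4 naive groups lay above all 4 formative groups, and the naive mutants were not below the naive controls. The differences were −1.57 in WT, −2.04 in the floxed line, −1.37 in DKO and −1.48 in dCD, with counting SEs of 0.17 to 0.22. The log2 fold in the authors' deposited table was −1.65.

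The narrow region at +9.0 kb (chr1:118636624-118637314, intron 2) had 23.2 and 4.98 reads in WT, 26.3 and 6.06 in the floxed line, 26.2 and 6.08 in DKO, and 25.3 and 6.89 in dCD. It showed the largest loss of the 44 in DKO (−2.09) and in dCD (−1.86), close to that of WT (−2.20), but on few reads, with counting SEs from 0.62 to 0.71. The region at +11.2 kb, also in intron 2, showed the largest loss in the floxed line, −2.56, from 96.7 to 14.8 reads. At +14.6 kb formative dCD, with 34.0 reads against 64.1 in WT, was lower than WT by more than in any other region, −0.87. The authors' deposited table gave log2 folds of −2.41, −1.64 and −1.12 for these 3 regions.

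The region with most reads in naive WT cells lay at +21.7 kb (chr1:118644833-118654400, from intron 2 to intron 5, 9.6 kb wide). It had 426 reads in naive and 226 in formative WT cells, 480 and 227 in the floxed line, 327 and 177 in DKO, and 353 and 171 in dCD. Every naive value was above every formative value. The log2 differences were alike: −0.87, −1.02, −0.82 and −0.97 in the same order of genotypes.

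From intron 3 to the gene's end the mutants were again low in the naive state. The last of these 9 regions, at +58.2 kb, starts in exon 15 and has its midpoint past the gene's end. The 9 regions summed to 1087 reads in naive and 450 in formative WT cells, and to 1189 and 500 in the floxed line. DKO had 528 and 368, and dCD 536 and 367. Naive DKO thus held 48.6% and dCD 49.3% of WT, against 91.7% and 88.3% in introns 1 and 2. Relative to its own control, the floxed line, naive DKO held 44.4% here and 79.6% in introns 1 and 2. Without the region at +58.2 kb, the other 8 held 695 reads in naive WT cells, and naive DKO and dCD had 50.1% and 49.7% of that. The mean difference between the states was −1.43 in WT and −1.34 in the floxed line, but −0.61 in DKO and −0.42 in dCD. At least 2-fold lower were 8 of the 9 regions in WT, 6 in the floxed line and 0 in either mutant. Whether the contrast between the 2 stretches of the gene is larger than the variation between libraries was not tested.

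Of these 9 regions, 7 were called lower in WT. The region at +36.1 kb (chr1:118662965-118665142), from intron 8 to intron 10, showed the largest WT loss of the 44, −2.33, and the largest naive difference of dCD from WT, −1.45. It holds 1 of the ESRRB matches shown above. Reads were 72.3 and 13.6 in WT, 72.6 and 16.3 in the floxed line, 28.8 and 16.2 in DKO, and 26.0 and 21.7 in dCD, so that the naive controls stood alone. The log2 fold in the authors' deposited table was −2.59 with an FDR of 2.98e-07.

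At the other 2 regions of high naive WT reads the naive controls were again the highest. At +29.5 kb (chr1:118654556-118660289, introns 5 to 7) reads were 217 and 75.9 in WT, 230 and 91.1 in the floxed line, 94.1 and 50.5 in DKO, and 93.5 and 64.6 in dCD. At +58.2 kb (chr1:118680293-118691971), which covers the end of exon 15 and the sequence after the gene, they were 391 and 210 in WT, 425 and 215 in the floxed line, 180 and 146 in DKO, and 190 and 125 in dCD. The log2 folds in the authors' deposited table were −1.50 and −0.88. The remaining called regions of the stretch, at +33.7, +40.1, +46.1 and +50.9 kb, had log2 folds of −1.48, −1.45, −1.41 and −1.52 in that table, and those at +44 and +48.4 kb were not called (FDR 0.102 and 0.241).

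**Figure D3:**
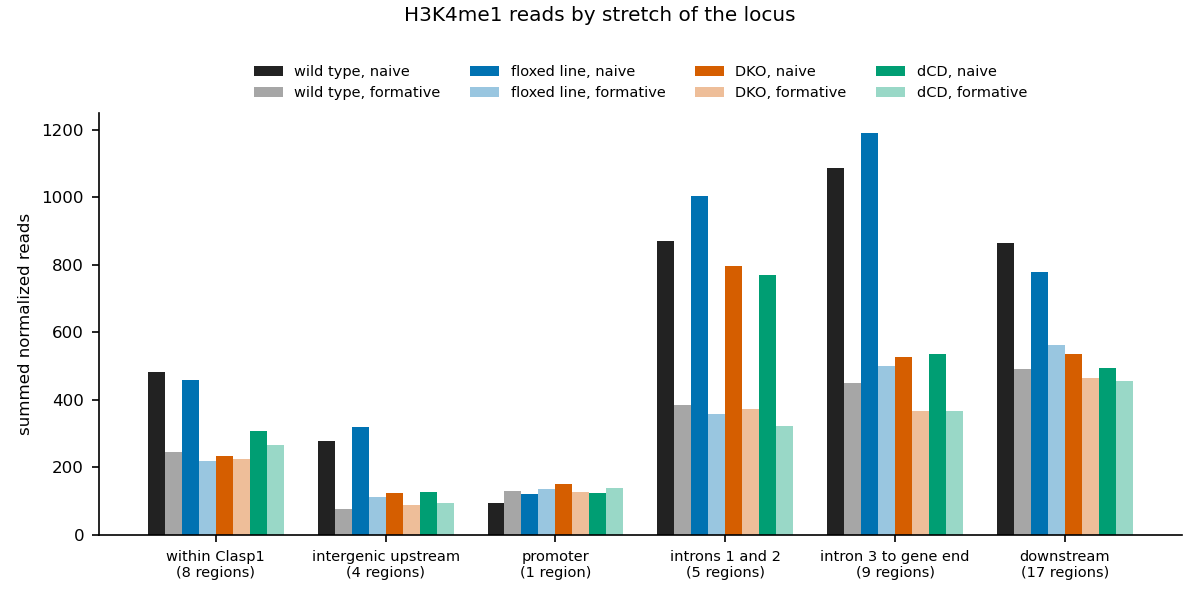
Summed normalized H3K4me1 reads (vertical axis) in the 6 stretches of the locus (horizontal axis), dark bars for naive and pale bars for formative cells of each genotype; each bar is 1 pooled value without error. In introns 1 and 2 all 4 naive bars are high (769 to 1003), and from intron 3 to the gene's end those of DKO and dCD (528 and 536) are well below those of WT and the floxed line (1087 and 1189).

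The 17 downstream regions, between Tfcp2l1 and Gli2, kept more of their naive reads in WT and the floxed line than the other stretches did, the promoter apart. Their reads summed to 866 and 491 in WT (56.7% remaining), 779 and 563 in the floxed line (72.2%), 536 and 464 in DKO (86.7%), and 496 and 457 in dCD (92.2%). In WT 7 were called lower, with log2 folds in the authors' deposited table of −1.02 at +68.4 kb, −2.18 at +83.8 kb, −1.51 at +106.0 kb, −1.75 at +113.5 kb, −1.41 at +118.1 kb, −1.17 at +129.5 kb and −1.74 at +131.7 kb. The region at +129.5 kb (chr1:118755987-118758961) held most reads, with 138 and 59.8 in WT, 139 and 94.5 in the floxed line, 78.4 and 47.9 in DKO, and 54.0 and 51.1 in dCD. It was the only downstream region with over 100 reads in naive WT.

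The outermost region, at +148.3 kb, was nearly equal in the states of WT, with 90.1 reads in naive and 90.4 in formative cells (FDR 0.961 in the authors' deposited table). It gave the highest difference in the floxed line, 0.40, from 77.3 to 103 reads. Some regions with few formative reads were higher in a mutant than in its control. At +113.5 kb formative DKO exceeded the floxed line by 1.39, on 6.79 against 2.48 reads. At +131.7 kb formative dCD exceeded WT by 1.18, on 22.6 against 9.85 reads. These were the highest of the 44 in those comparisons. Under the 95% counting interval, 36 of 44 differences between the states were below 0 in WT, 30 in the floxed line, 8 in DKO and 12 in dCD. The share over all regions was not computed for this interval. Median normalized reads per region over the whole table were lower in naive DKO and dCD as well, at 31.6 and 31.5. They were 39.2 in naive WT and 37.0 in the naive floxed line. These values are recovered from the levels and do not give the depth of the libraries. The part of depth in these counts was not tested.

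H3K27ac, the mark of active enhancers and promoters, was lower in formative cells over the promoter and gene body, in WT and in DKO. The folds are those of the authors' deposited table, on a log2 scale, from samples outside this series, without an error or a test. The labels give more than 1 antibody catalogue number for the H3K4me1 libraries, 1 of them sold for H3K27ac, which bears on any comparison of the 2 marks and was not resolved. From the promoter to the gene's end 13 of 15 regions were at least 2-fold lower in formative WT cells and 15 of 15 in DKO, in the authors' deposited table. Outside that stretch 5 and 7 of 29 were. Over all 44 regions these make 18 and 22, against 18.8% and 18% of all regions in the authors' deposited table. The median fold from promoter to gene end was −2.69 in WT and −2.47 in DKO in the authors' deposited table, and −0.17 and −0.33 in the other 29 regions.

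The promoter region had the largest loss in WT, with a log2 fold of −5.04, and −2.86 in DKO, in the authors' deposited table. In WT, H3K27ac and H3K4me1 thus parted at the promoter, where H3K4me1 was not lower. In DKO the H3K4me1 difference at the promoter was −0.23, with a counting SE of 0.17. In the 5 regions of introns 1 and 2 the folds in the authors' deposited table averaged −3.32 in WT and −2.81 in DKO. In the 9 regions from intron 3 to the gene's end they averaged −2.16 and −2.36. The mean H3K4me1 difference there was −0.61 in DKO and −1.43 in WT. Within Clasp1 the average folds were 0.28 in WT and 0.97 in DKO in the authors' deposited table, the latter raised by a fold of 5.76 in the narrow region at −27.5 kb, where the 8 H3K4me1 values lay between 4.75 and 20.0 reads. Of the 8 regions within Clasp1, 0 was at least 2-fold lower for H3K27ac in either genotype in the authors' deposited table, while 5 were for H3K4me1 in WT.

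The difference in H3K27ac between DKO and WT centred near 0 in the naive state. Its median over the 44 regions, DKO minus WT, was 0.02 in naive and −0.37 in formative cells in the authors' deposited table, with 5 and 9 regions at least 2-fold lower against 22.8% and 27.8% of all regions. In formative cells the promoter was higher in DKO than in WT by 2.10, and the +4.6 kb region by 2.26, in the authors' deposited table. Across the 44 regions the state differences of the 2 marks correlated at r = 0.08 in WT and 0.34 in DKO. In the 25 regions at least 2 kb wide r was 0.21 and 0.51. The points share libraries and neighbouring sequence, and the values are given as a description.

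**Figure D4:**
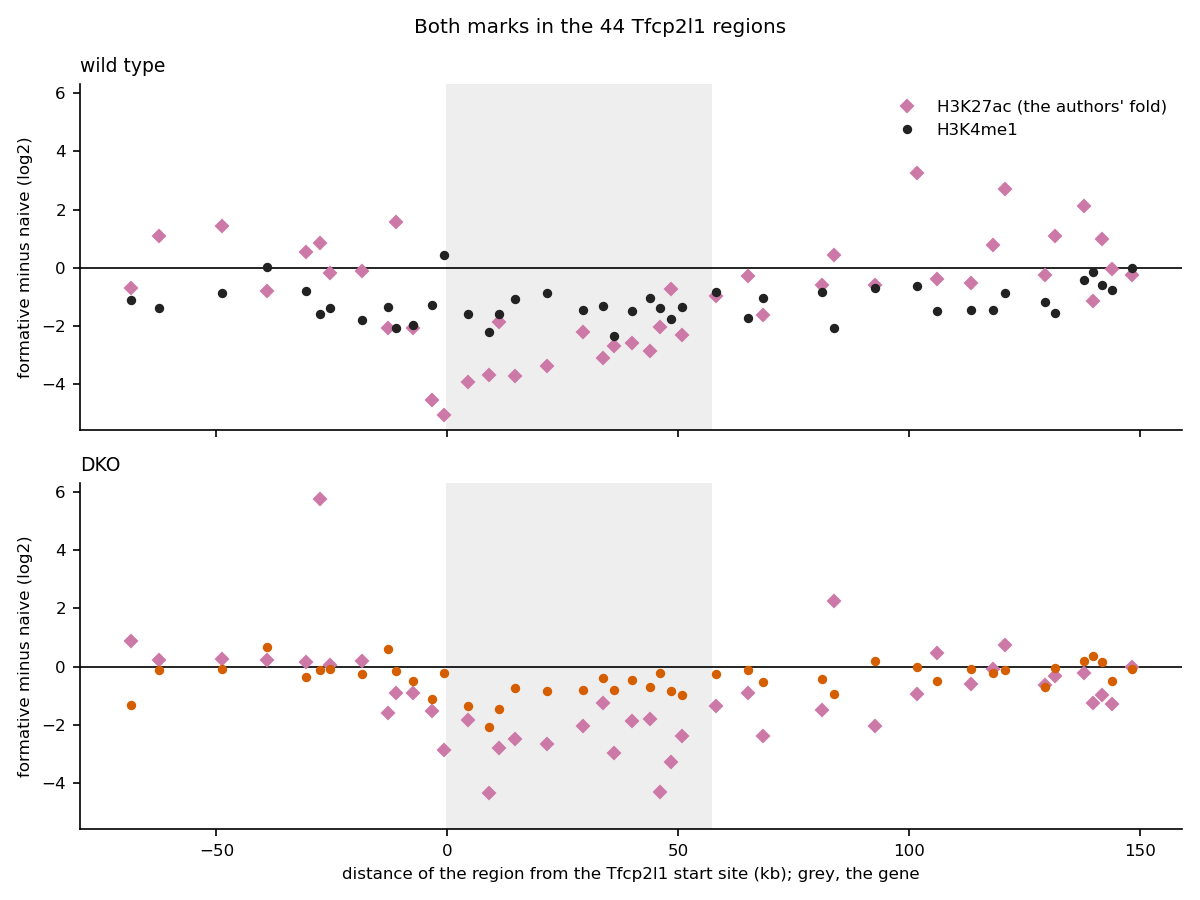
Difference between formative and naive cells on the log2 scale (vertical axis) for H3K27ac (diamonds, the authors' deposited folds) and H3K4me1 (circles) against distance from the start site in kb (horizontal axis), WT above and DKO below. Diamonds from the promoter to the gene's end (grey) are below 0 in both genotypes, and the circle at the promoter is above 0 in WT.

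Tfcp2l1 RNA was lower in formative cells in both genotypes for which the authors' deposited table gives a fold. It was 7.28-fold lower in formative than in naive WT cells and 6.80-fold lower in DKO, in the authors' deposited table, as log2 folds of −2.86 and −2.76. Of 10885 genes with a fold, 98 were as low or lower in WT and 56 in DKO; at least 2-fold lower were 9.77% of genes in WT and 5.25% in DKO. Between genotypes the log2 fold, DKO minus WT, was −0.26 in naive and −0.16 in formative cells in the authors' deposited table. RNA of the floxed line and of dCD was not analysed here.

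The regions of other genes in this circuit were read the same way, from a list, over all regions whose nearest gene they are. Of the receptors and signal carriers of LIF, 18 of 111 regions (16.2%) were called lower in formative WT cells and 0 higher, where 10.5% of all regions were called lower and 9.82% higher. Lifr, the LIF receptor, had 11 of 45 lower with a mean of −0.56, its partner Il6st 4 of 32 (−0.41), and Stat3, the factor that carries the signal, 3 of 9 (−0.48). Jak1, the kinase, and Socs3, the feedback inhibitor, had none called, with means of 0.07 and 0.08. On the WNT side 3 of 23 regions (13.0%, near the share over all regions) were lower and 0 higher, all 3 at Tcf7l1 (−0.28), the repressor that acts on Tfcp2l1. Ctnnb1 (0.10) and Gsk3b (0.18), for β-catenin and the kinase that marks it for decay, had none in either direction.

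Among 11 other naive factors 72 of 333 regions were called lower and 12 higher, or 21.6% and 3.60% against 10.5% and 9.82% of all regions, and none had a mean as low as Tfcp2l1. Zfp42, a zinc finger gene used as a marker of the state, came next at −0.93 (15 of 27 lower, 1 higher), followed by Prdm14, a repressor of differentiation genes, at −0.80 (10 of 30). Klf2 had 9 of 14 regions lower and 1 higher with a mean of −0.67, Klf4 had 7 of 39 lower and 1 higher (−0.51), Klf5 12 of 73 lower and 3 higher (−0.35), and Nr5a2 14 of 75 lower and 1 higher (−0.34). Esrrb stood near 0 in H3K4me1, with a mean of −0.10 over 39 regions of which 4 were lower and 3 higher, while its RNA log2 fold was −3.98 in the authors' deposited table. Gbx2 (−0.21), Nanog (0.07), Tbx3 (0.20) and Nr0b1 (0.42, with 1 region) stood closer to 0 or above it. Their RNA log2 folds in WT were −2.49, −1.80, −2.68 and −3.24 in the authors' deposited table. RNA was below 0 in WT for all 11 naive factors, with a median of −2.68 in that table. The core factors Pou5f1 (0.21), Sox2 (0.39), Sall4 (0.41) and Zfp281 (0.13), which both states use, had 1 of 52 regions lower and 5 higher, or 9.62% higher, near the share of all regions.

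The relatives of Tfcp2l1 did not move as one. Its CP2 relatives Tfcp2 and Ubp1 had means of −0.60 and −0.38 with 0 of 4 and 1 of 7 regions called lower. The grainyhead factors, known from epithelia, parted: Grhl3 was at −0.73 with 3 of 6 regions lower, Grhl1 at −0.20 with 1 of 14 lower and 1 higher, and Grhl2 at 0.54 with 9 of 24 higher and 1 lower. RNA log2 folds in the authors' deposited table were −3.82 for Grhl3 and 4.02 for Grhl2, the same sign as H3K4me1. They were 1.42 for Grhl1 and 0.29 for Ubp1, the opposite sign to H3K4me1, and none was given for Tfcp2.

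As a check of the states, 45 of 155 regions (29.0%, against 9.82% of all regions) of 8 formative marker loci were called higher in formative WT cells and 0 lower, with means of 1.59 at Fgf5, 0.90 at Pou3f1 and 0.12 at Otx2. Markers of fibroblasts, which naive cultures may be grown on, had 17 of 51 regions (33.3%) higher and 4 (7.84%) lower at the H3K4me1 level. The means were 1.15 at Twist1, 1.13 at Prrx1, 1.13 at Dcn, 0.99 at Col1a2, 0.41 at Col3a1 and −0.25 at Col1a1. Their RNA log2 folds in WT were 2.58 for Col1a2, 2.53 for Twist1 and 1.30 for Col1a1 in the authors' deposited table. None was given there for Col3a1, Dcn and Prrx1. Levels of RNA, as distinct from folds, were not used here, and the part of other cells in the Tfcp2l1 values was not tested.

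**Figure D5:**
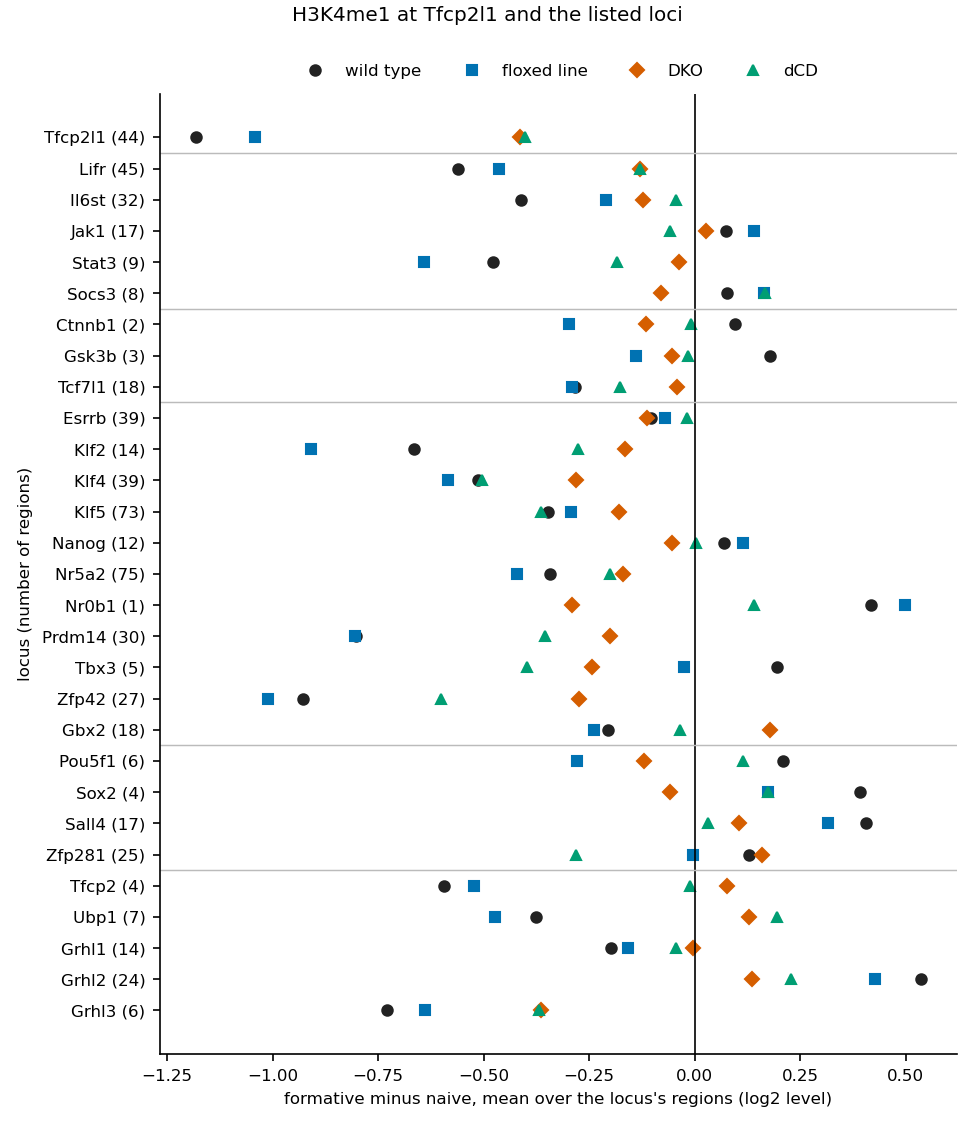
Mean difference in H3K4me1 level, formative minus naive, on the log2 scale (horizontal axis) for Tfcp2l1 and each listed locus (vertical axis, number of regions in brackets, grouped as LIF, WNT, naive, core and CP2 or grainyhead genes), with 1 marker per genotype. Tfcp2l1 is lowest in WT (−1.18), the floxed line (−1.04) and DKO (−0.41), and in dCD (−0.40) Klf4 and Zfp42 are lower.

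Beyond the locus, the Gli2 side had more regions called lower than the share of 10.5% over all regions. Within 500 kb of the start site, the 30 regions assigned to Mir6346, a microRNA gene inside Gli2, had 13 called lower and 0 higher, with means of −0.82 in WT, −0.78 in the floxed line, −0.12 in DKO and −0.42 in dCD. Gli2, a hedgehog effector, had 7 of 20 lower (−0.49), or 35% against 43.3% at Mir6346. On the other side, Clasp1 had 2 of 16 lower and 1 higher (−0.30) and 2900060B14Rik 3 of 23 lower (−0.34), or 12.5% and 13.0% lower, near the share over all regions. Further out, Tsn had 1 of 6 lower (−0.61) and Nifk 1 of 8 lower and 1 higher (−0.08). Assignment to the nearest start site does not show which gene a region acts on.

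The 5 genes whose mean levels over the 8 groups were most like those of Tfcp2l1, each centred on its own mean, were Vmn2r126, Dlgap3, Nid1, Rnaseh2b and Accsl, out of 12375 genes with at least 5 regions. Their root mean square differences from Tfcp2l1 were 0.08, 0.09, 0.10, 0.10 and 0.10 on the log2 scale, where the median gene was at 0.44. They had 9, 13, 21, 14 and 15 regions. Their WT differences between the states ran from −1.29 at Accsl to −0.92 at Rnaseh2b, and in DKO from −0.46 at Dlgap3 to −0.16 at Nid1.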

How the data were processed

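Of 21 samples, all CUT&RUN, 16 are H3K4me1 libraries in 8 groups of 2. IgG (1 sample) and MLL4 (4 samples) were not analysed here. The build was mm10, and the tools were deepTools, DiffBind, SEACR, Bowtie2 and Trim Galore, per the submitters' processing notes, which give no version. The H3K4me1 antibody has different catalogue numbers in different label fields, 1 of them sold for H3K27ac; which antibody was used was not resolved, and the mark is named as labelled. The deposited table gives log2 levels, 1 pooled column per group, per the file headers. The floxed line was read from columns with CKO in their names. For WT, the authors' deposited table also gives a log2 fold, a p-value and an FDR per region. Its log2 fold columns for H3K27ac and RNA come from samples outside this series. A further 14 columns of levels were not used.

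A level was found to be close to the log2 of 1 plus normalized reads divided by squared width and scaled by a constant. The constant was fitted on the WT columns and used for all groups. Levels were therefore compared only within a region, and were turned back into normalized reads to show the size of the counts. Of 186826 regions, 186824 had levels. Counting SEs and 95% intervals treat normalized reads as counts and cover counting error only. A region was counted at a 2-fold difference, or an FDR under 0.05 in the authors' deposited table. Differences between groups were planned as sizes without a test, because 1 pooled column per group was expected. Named regions were those called in WT, the 3 with most naive WT reads, the one nearest the start and the extremes of 8 comparisons. The members and gene lists were chosen with earlier results of these data known. Alternatives were centring, quantile scaling, reads in place of levels, regions within 50 kb, regions with at least 32 reads, a 1.5-fold threshold and an FDR of 0.01. Sequences came from RefSeq GRCm38.p6, gene structure from GENCODE. Scripts ran in Python 3.11.15 with pandas 2.3.3 and numpy 2.4.6, and were tested on simulated data.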

Additional observations from a re-analysis of the deposited data

How the results depend on the processing

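Each of 21 values was recomputed under the settings that apply to it, 95 times in all; 77 were kept and 18 moved, where a mean counted as moved past 0.24, the SD over genes of the difference between the control lines. In 6 of them the sign changed, at 3 means near 0: DKO minus the floxed line in formative cells from −0.08 to 0.13 (centred) and 0.12 (quantile scaled), dCD minus WT in formative cells from 0.04 to −0.10 (at least 32 reads), and the floxed line minus WT in naive cells from −0.07 to 0.07 (centred), 0.04 (within 50 kb) and 0.03 (at least 32 reads). Without the promoter region, a setting chosen after seeing the data, all 12 means were kept. Within 50 kb (23 regions) the floxed difference between the states was −1.29. At 1.5-fold the counts of lower regions between the states became 35 in the floxed line, 14 in DKO and 15 in dCD; for DKO minus the floxed line they became 25 in naive and 10 in formative cells, and for dCD minus WT 28 and 7. There were 17 regions called lower at an FDR of 0.01 in the authors' deposited table. Centring each group gave dCD minus WT means of −0.38 in naive and 0.44 in formative cells and quantile scaling −0.50 and 0.38; the naive dCD counts were 2 and 8. For DKO minus the floxed line the formative count was 0 under both, and the naive count 8 under quantile scaling. For none of these alternative counts was the share over all regions computed, so they describe the dependence on the setting only.

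No paired analysis was possible because the table holds 1 pooled column per group; leaving out each replicate was not run for the same reason. Depth limits the narrow regions most: 10 of 44 had under 32 reads in naive WT cells, and in 8 a formative value was under 10 reads.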

Other observations

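A few narrow regions set the control lines apart. At +113.5 kb the floxed line had 7.30 reads in naive and 2.48 in formative cells, where WT had 26.6 and 9.55, so that it was lower by −1.84 and −1.87 on the log2 scale. At −27.5 kb it had 7.55 reads in naive cells against 20.0 in WT (−1.39). In both regions naive DKO (7.17 and 7.61 reads) was near the floxed line and below WT, so the DKO difference there depends on the control chosen. At +131.7 kb the floxed line was higher than WT in formative cells, with 22.6 against 9.85 reads (1.18), and DKO (26.95) and dCD (22.6) were higher too.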
